A study of Mus musculus with 6 samples.

Results

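Desmosome components were followed in stem cells sorted from squamous cell carcinomas of mouse skin as a set of 10 genes taken by name: the desmogleins Dsg1a, Dsg1b, Dsg2 and Dsg3, the desmocollins Dsc2 and Dsc3, the plakophilins Pkp1 and Pkp3, the desmoplakin gene Dsp, and Perp. All 10 were measured, each by 1 feature of the array that carried this gene symbol and no other, out of 30142 genes. The WT group was 3 samples from wild-type mice and the Sfrp1_KO group 3 samples from Sfrp1-/- mice, which lack a secreted antagonist of Wnt signalling. Mice of both genotypes had received the mutagen DMBA on 3 days (PD 23, 25 and 27 in the labels' notation) and then the tumour promoter TPA 2 times a week until 30 to 40 weeks, so no group is untreated skin. Lineage-negative cells with surface Epcam, α6 integrin and CD34 were sorted from the tumours, and total RNA of each sample went to 1 Affymetrix MTA 1.0 array. The labels name neither the deleted part of Sfrp1 nor the animals behind each sample, so every p-value here reflects only how far these samples scattered, and that scatter may be technical.

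A desmosome is a spot-like junction that ties the keratin filaments of neighbouring epithelial cells together. Desmogleins and desmocollins are the cadherins that span the membrane and adhere in the gap between cells. Inside the cell they bind plakoglobin, encoded by Jup, and plakophilins, and desmoplakin links this plaque to keratin. In the epidermis Dsg3 and Dsc3 are known from the basal and lower layers, whereas the Dsg1 genes and Dsc1 are known from the upper layers. Dsg2 and Dsc2 are the cadherins of simple epithelia and of the heart, and Perp is a tetraspan membrane protein and p63 target needed for stable desmosomes in stratified epithelia.

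Values are log2 signals as deposited. They reach 19.93 although a scanner of 16 bits ends at 16, so differences are in deposited log2 units and need not be doublings of RNA. The background level of an array, the highest of its 23 antigenomic probe sets, lay between 4.82 and 5.10. Sfrp1 stood between 5.48 and 6.07 in WT and between 5.09 and 5.15 in Sfrp1_KO, without overlap (difference -0.64, SE 0.15, limma adjusted p = 0.0969; two-sided exact permutation p = 0.1, the smallest possible with 3 against 3). The sort markers did not all match the gate. Epcam was at 6.65 to 8.69 in WT but at 4.89 to 5.22 in Sfrp1_KO, where 1 of 3 arrays lay above background (limma adjusted p = 0.0455, and up to 0.184 without WT replicate 1 or any Sfrp1_KO array). Itga6, the α6 integrin gene, was above background on all 6 arrays and was called lower in Sfrp1_KO (difference -1.89, limma adjusted p = 0.0292). That call ended without WT replicate 2 or any Sfrp1_KO array (up to 0.111). Cd34 was not among the listed genes. Of 10 keratinocyte markers 9 were called lower in Sfrp1_KO and none higher, with a median difference of -2.79, where 1.45% of all genes were called lower. Over the 15 alternative settings the count called lower ran from 3 to 10, and it was 5 without Sfrp1_KO replicate 1, 2 or 3.

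Expression of desmosome genes was lower in Sfrp1_KO across the plaque and the cadherins. Of the 10 genes 8 fell, none rose and 2, Dsg2 and Dsc3, did not pass the test (limma over all genes, Benjamini-Hochberg adjusted p under 0.05). Among all 30142 genes 1.45% were called lower and 1.83% higher. The median difference of the 10 genes was -3.30, against -0.01 over all genes. Every Sfrp1_KO array lay below every WT array for all 10 genes, Dsg2 with signals under background included, which held for 10.8% of all genes. Without Sfrp1_KO replicate 1, 2 or 3 the count called was 5 (Dsp, Dsg3, Pkp1, Pkp3 and Perp, which were called without any 1 array), and without WT replicate 1 it was 9. On bulk arrays fewer cells of a type and less RNA per cell cannot be told apart.

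**Figure D1:**
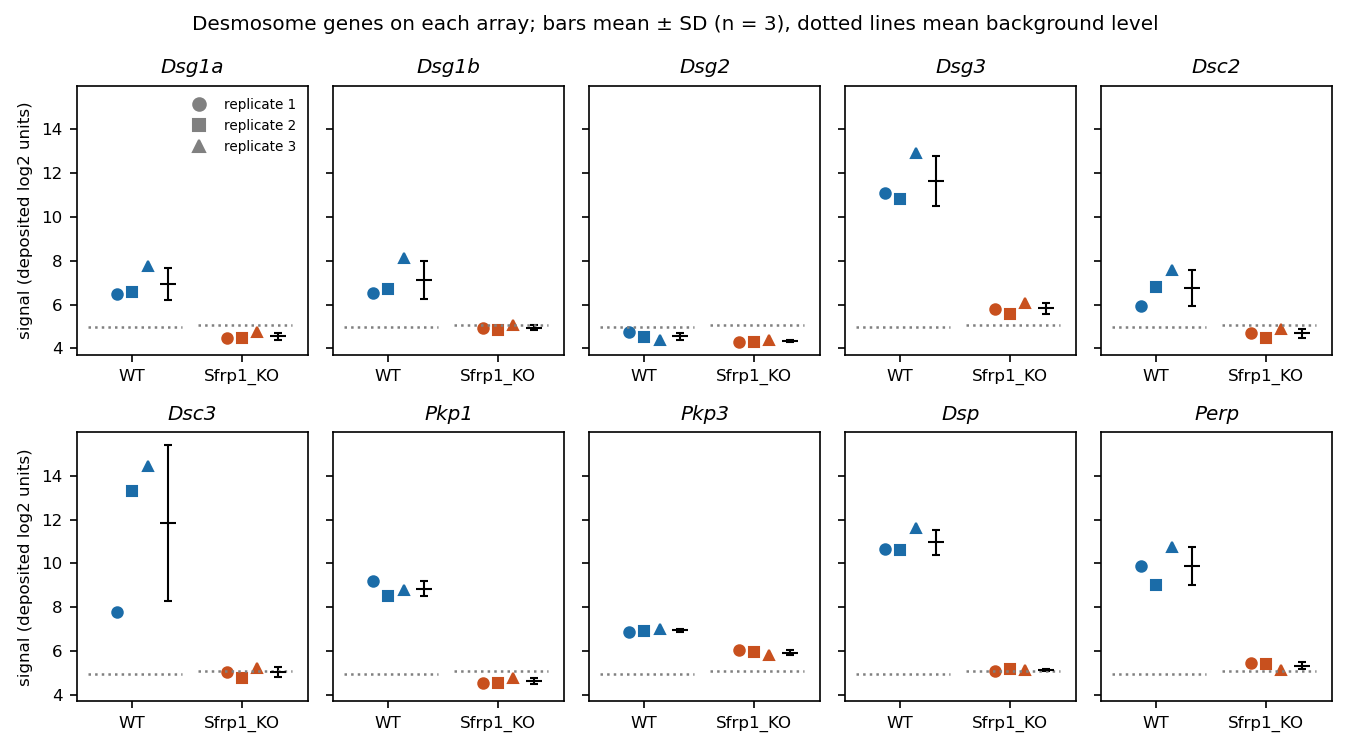
Signal of the 10 desmosome genes on each array in deposited log2 units, with the WT and Sfrp1_KO arrays as points shaped by replicate number, mean ± SD (n = 3) as bars and the mean background level of each genotype as dotted lines. The Sfrp1_KO arrays lie below the WT arrays in each panel, Dsg2 lies below background in both genotypes, and WT replicate 1 stands at 7.77 for Dsc3 where the other WT arrays are at 13.30 and 14.47.

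Dsp, which encodes the linker between plaque and keratin, stood at 10.67, 10.59 and 11.62 on WT arrays 1 to 3. On the Sfrp1_KO arrays it stood at 5.07, 5.17 and 5.12. The groups lay far apart, and the Sfrp1_KO values were within 0.10 of each other and close to the background level, which 2 of 3 exceeded. Dsp fell by 5.84 (SE 0.27, 95% CI -6.49 to -5.19, limma adjusted p = 0.000527). It was called without any 1 array, with adjusted p between 0.000183 and 0.00695.

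The 250 bases before the start of Dsp are shown because Dsp, the linker to keratin, was called without any 1 array and is the member with an entry in the RefSeq promoter table, where 1 of the 10 genes matched. The window lies at chr13:38151044-38151293 on the plus strand of GRCm38.p6, and capitals mark matches to the GC box.
Dsp: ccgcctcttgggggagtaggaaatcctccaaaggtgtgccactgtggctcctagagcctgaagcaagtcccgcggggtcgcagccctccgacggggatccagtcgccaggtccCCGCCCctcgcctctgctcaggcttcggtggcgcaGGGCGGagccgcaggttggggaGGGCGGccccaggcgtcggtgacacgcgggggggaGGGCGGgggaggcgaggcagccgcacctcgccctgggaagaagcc
The GC box GGGCGG, searched on both strands, occurred 4 times, at 137, 102, 80 and 45 bases before the start, the first of these on the minus strand, and no copy overlapped another. At least 1 GC box was present in 32.7% of 32851 promoter windows of the same length. The window held 72.4% G and C, against a median of 52.4%. These letters had no match to the E-box CAGGTG (17.2% of all windows), the Grainyhead-like motif AACCNGTT (1.79%), the AP-1 motif TGANTCA (6.75%), the TATA box TATAAA (12.4%) or CATG cores spaced as in p53 family sites (0.49%).

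Pkp1, a plakophilin that strengthens desmosomes by clustering desmoplakin and the cadherins, read 9.22, 8.53 and 8.79 in WT. In Sfrp1_KO it read 4.55, 4.56 and 4.77. All 3 Sfrp1_KO arrays were under their background level, so the fall is a bound: Pkp1 was lower by at least 3.78 deposited log2 units (measured difference -4.22, SE 0.18, limma adjusted p = 0.000440). A bound here takes the mean background level in place of the mean of the dim genotype.

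Pkp3, the plakophilin found through all layers of the epidermis, fell by about 1 unit. Its signal was 6.87, 6.93 and 7.02 in WT and 6.03, 5.96 and 5.81 in Sfrp1_KO. The groups did not overlap, and each of the 6 arrays was above background. The difference was -1.01 (SE 0.09, limma adjusted p = 0.00539).

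Dsg3, the basal desmoglein and the antigen of pemphigus vulgaris, had WT values of 11.11, 10.83 and 12.93. Its Sfrp1_KO values were 5.81, 5.58 and 6.09. Dsg3 stayed above background on all 3 Sfrp1_KO arrays and yet fell by 5.80 (SE 0.53, limma adjusted p = 0.00537). WT replicate 3 was the highest array, and the call held without any 1 array.

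Dsg1a and Dsg1b, mouse copies of the desmoglein of the upper epidermis, are close paralogs whose probes can share signal. Dsg1a stood at 6.47, 6.56 and 7.77 in WT and at 4.46, 4.46 and 4.73 in Sfrp1_KO, where every array was under background. It was lower by at least 1.86 (measured difference -2.38, SE 0.34, limma adjusted p = 0.0203). The 95% interval of the measured difference, -3.21 to -1.56, reached a smaller fall than this bound. Dsg1b stood at 6.52, 6.71 and 8.14 in WT and at 4.93, 4.86 and 5.05 in Sfrp1_KO, with 1 array above background. Its difference was -2.17 (SE 0.41, limma adjusted p = 0.0466). WT replicate 3 was the highest array for the pair of genes, and neither had overlapping groups. Dsg1a was not called without Sfrp1_KO replicate 1, 2 or 3 (adjusted p = 0.0841, 0.101 and 0.0575), nor was Dsg1b without any of these (0.157, 0.185 and 0.120) or without WT replicate 2 (0.0766). Dsg1b was also not called with all features tested (0.0735), after quantile normalization (0.0596) or with the replicate number as a block (0.0641).

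Dsg2 was not detected in either genotype. It read 4.72, 4.52 and 4.40 in WT and 4.30, 4.29 and 4.37 in Sfrp1_KO. All 6 values were under the background level of their array, so its lower reading in Sfrp1_KO is no measured level. The difference was -0.23 (SE 0.10, 95% CI -0.48 to 0.02, limma adjusted p = 0.406).

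Dsc2, the widely expressed desmocollin, had values of 5.93, 6.79 and 7.56 in WT and 4.68, 4.48 and 4.89 in Sfrp1_KO. All Sfrp1_KO arrays were under background, and Dsc2 was lower by at least 1.69 (measured difference -2.08, SE 0.39, 95% CI -3.01 to -1.14, limma adjusted p = 0.0455). Its interval thus reached a smaller fall than its bound. The call of Dsc2 ended without Sfrp1_KO replicate 1, 2 or 3 (adjusted p = 0.152, 0.187 and 0.107) and without WT replicate 2 or 3 (0.117 and 0.0598). It also ended with all features tested (0.0719), after quantile normalization (0.0532) and with the replicate block (0.0611).

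Dsc3, the desmocollin of basal keratinocytes, had the widest spread of the 10 genes. Its WT values were 7.77, 13.30 and 14.47, and its Sfrp1_KO values were 5.04, 4.79 and 5.24. WT replicate 1 lay 5.53 below the next WT array, though still above each Sfrp1_KO array. Among all 30142 genes Dsc3 was the only gene for which WT replicate 1 lay more than 3 units below both other WT arrays, and only 2 genes, Snord70 and Xist, had a larger WT range than its 6.70. These comparisons were chosen after the values were seen. In Sfrp1_KO 1 of 3 arrays was above background. The measured difference was -6.82 (SE 1.63, 95% CI -10.75 to -2.90) and did not pass (limma adjusted p = 0.0964). Without WT replicate 1 the difference was -8.86 with adjusted p = 0.00143. Over the 15 alternative settings it ran from -8.86 to -5.51, with adjusted p from 0.00143 to 0.770.

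Perp, the tetraspan partner of the desmosome, stood at 9.87, 9.04 and 10.77 in WT. The Sfrp1_KO arrays gave 5.44, 5.40 and 5.15. All 3 were above background, and Perp fell by 4.56 (SE 0.41, limma adjusted p = 0.00478). Of its relatives in the PMP22 and EMP family, Emp1 rose by 2.50 (SE 0.33, adjusted p = 0.0148) and Emp2 fell by 1.02 (SE 0.18, adjusted p = 0.0373), and 3 did not pass, among them Emp3 (difference 2.71, adjusted p = 0.0527). Emp3 was called higher without Sfrp1_KO replicate 3 (0.0115), after quantile normalization (0.0240), with the replicate block (0.0258), with array weights and with trend and robust moderation. Emp1 lost its call when Sfrp1_KO replicate 1 or 2 was left out (adjusted p up to 0.0811). Emp2 was called without WT replicate 1 and not without any other array (up to 0.141), nor after quantile normalization (0.139).

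Of 11 other desmosome and desmosome-linked genes 3 fell, none rose and 8 did not pass, with a median difference of -0.24. Jup, whose product plakoglobin also serves adherens junctions, stood at 9.12, 9.32 and 9.35 in WT and at 6.42, 6.25 and 6.0 in Sfrp1_KO. It fell by 3.04 (SE 0.13, limma adjusted p = 0.000440), was called without any 1 array and stayed above background. Dsp changed by -2.80 relative to Jup without overlap of the arrays (two-sided exact permutation p = 0.1, adjusted over 6 pairs 0.12). Dsp lay near background in Sfrp1_KO, which limits how large a fall it can show.

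Dsg1c, the third mouse Dsg1 gene, was lower by at least 1.12 (measured difference -1.70, limma adjusted p = 0.0450), and Dsc1, the upper-layer desmocollin, by at least 0.31 (-0.60, adjusted p = 0.0449). The 95% interval of the measured Dsg1c difference, -2.47 to -0.94, reached a smaller fall than its bound. Dsg1c lost its call without Sfrp1_KO replicate 1, 2 or 3 or WT replicate 2 (adjusted p up to 0.177), and Dsc1 without any 1 of the 6 arrays (0.0637 to 0.175). Pkp4, a plakophilin-like protein of several junctions, was at 5.76 to 5.85 in WT and at 5.32 to 5.47 in Sfrp1_KO (difference -0.40, adjusted p = 0.0616). The plakin genes Ppl and Evpl, whose products join desmosomes to the cornified envelope, had differences of -0.18 and -0.24 (adjusted p = 0.661 and 0.229). Differences of the corneodesmosin gene Cdsn, Kazn and Pkp2 were -0.37, -0.21 and -0.11, and those of Dsg4 and Pnn were 0.04 and 0.06. Pkp2, the plakophilin of the heart, Dsg4, the desmoglein of hair, Evpl and Kazn were under background on all 6 arrays, so their values give no direction.

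**Figure D2:**
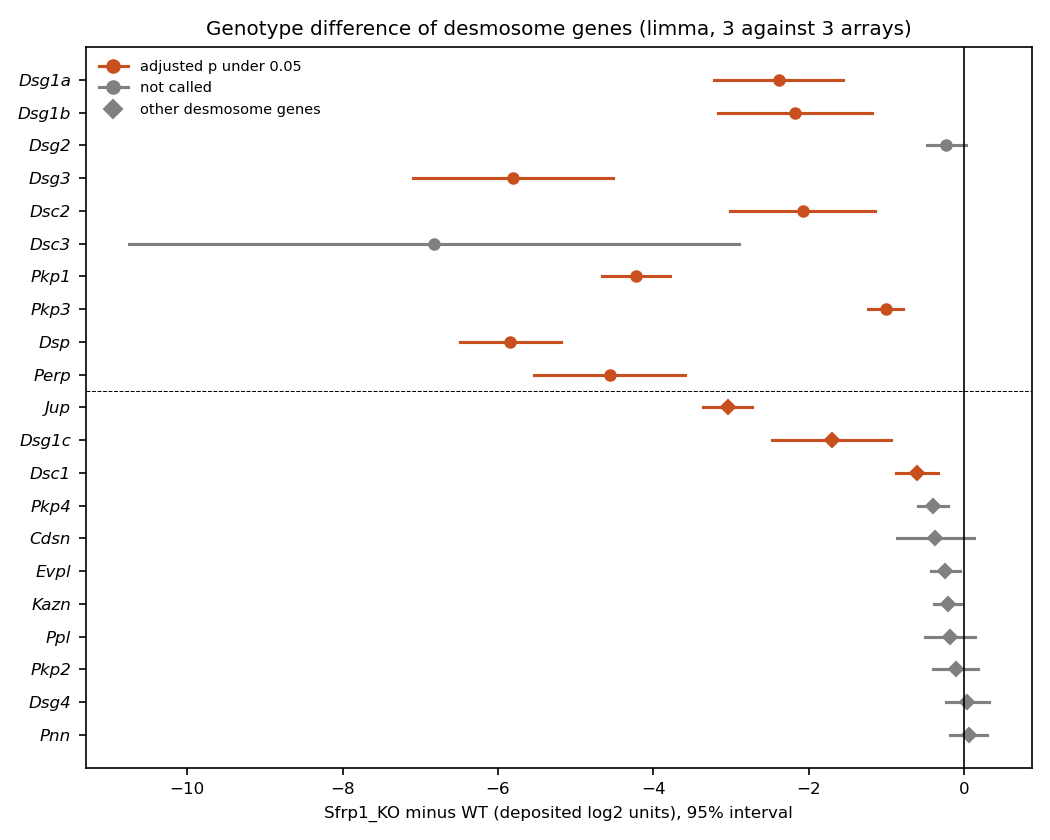
Sfrp1_KO minus WT difference (deposited log2 units) and its 95% limma interval for the 10 desmosome genes (circles, above the dashed line) and 11 other desmosome genes (diamonds), coloured where adjusted p was under 0.05. The 8 called genes of the set run from -5.84 for Dsp to -1.01 for Pkp3, Dsc3 has the widest interval, and Dsg2 and 8 of the other genes are not called.

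The desmosomal cadherins lie side by side on chromosome 18, in the order Dsc3, Dsc2, Dsc1, Dsg1c, Dsg1a, Dsg1b, Dsg4, Dsg3 and Dsg2 in the RefSeq table. The other genes of the set lie elsewhere, Dsp on chromosome 13, Pkp1 on 1, Pkp3 on 7 and Perp on 10. Of these 9 cadherin genes 6 were called lower, with a median difference of -2.08. The 3 that were not called do not adjoin each other: Dsc3 begins the row, Dsg4, under background in both genotypes, stands between Dsg1b and Dsg3, and Dsg2 ends the row next to Dsg3. Of the 10 nearest named and measured genes around the cluster, 5 on each side, none was called in either direction (limma adjusted p 0.0642 or higher), and their median difference was -0.02. Among all genes 1.45% were called lower and 1.83% higher, so few calls are due among 10 genes. Cdh2, the N-cadherin gene on the desmocollin side, was under background on all 6 arrays, as was Ttr, the transthyretin gene next to Dsg2. Aqp4, Chst9 and Trappc8 were under background on all 6 arrays too, so none of these genes could show a fall. Among the other flanking genes Taf4b and Kctd1 (difference -0.46) read lower without overlap of the arrays. B4galt6 and Rnf125 read higher without overlap (0.47 and 0.30). Taf4b, farthest out on the desmocollin side, had a difference of -1.24 (adjusted p = 0.226) and passed without WT replicate 1 (0.0299, against up to 0.479 without another array). Leaving out an array also changed the count of cadherins called: without Sfrp1_KO replicate 1, 2 or 3 only Dsg3 was called, and without WT replicate 2 only Dsg1a and Dsg3 were.

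**Figure D3:**
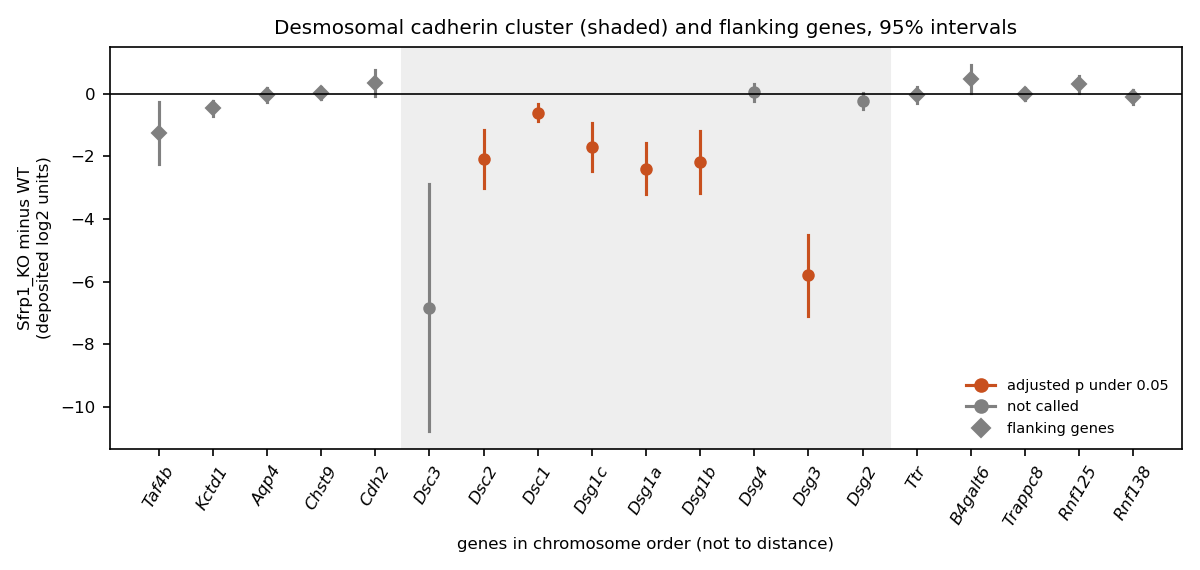
Sfrp1_KO minus WT difference (deposited log2 units) and its 95% limma interval for the 9 desmosomal cadherin genes (circles, shaded) and 5 flanking genes on each side (diamonds), in chromosome order and not to distance. Called genes, coloured, are all inside the cluster, where Dsg4 and Dsg2 lie near 0 beside Dsg3 at -5.80. The flanking genes Aqp4, Chst9, Cdh2, Ttr and Trappc8 were under background on every array.

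Within the WT group the 10 genes were not level. WT replicate 3 was the highest WT array for 8 of them, all but Dsg2 and Pkp1, whereas it was the highest for 36.6% of all genes. The median deviation of the 10 genes from their WT mean was -0.38 in replicate 1, -0.34 in replicate 2 and 0.82 in replicate 3. Hemidesmosome genes, whose products anchor keratin to the basement membrane, were ordered the other way: 7 of 8 were highest in WT replicate 1, and their median deviations were 0.78, -0.19 and -0.54. Their integrin gene Itgb4 stood at 10.97, 9.31 and 8.41 and their collagen gene Col17a1 at 8.65, 7.09 and 7.02. This contrast was noticed in the data and was not tested. Fibroblast markers were also highest in WT replicate 3 for 9 of 10 genes, with Dcn at 6.54, 6.58 and 10.56. On the Sfrp1_KO arrays Dcn stood at 10.1 to 11.2 (difference 2.58, limma adjusted p = 0.356). It was called higher without WT replicate 3 (0.0105). Endothelial markers were highest in WT replicate 3 for 7 of 7 genes, of which only 3 exceeded background on any WT array. The mean level of the fibroblast list was 5.72, 5.56 and 6.65 on the WT arrays. WT replicate 3 had 42.5% of all genes above background, against 33.2% to 36.9% on the other arrays. The part of these in the desmosome values was not tested. Without WT replicate 3, 7 of the 8 calls held, all but Dsc2.

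**Figure D4:**
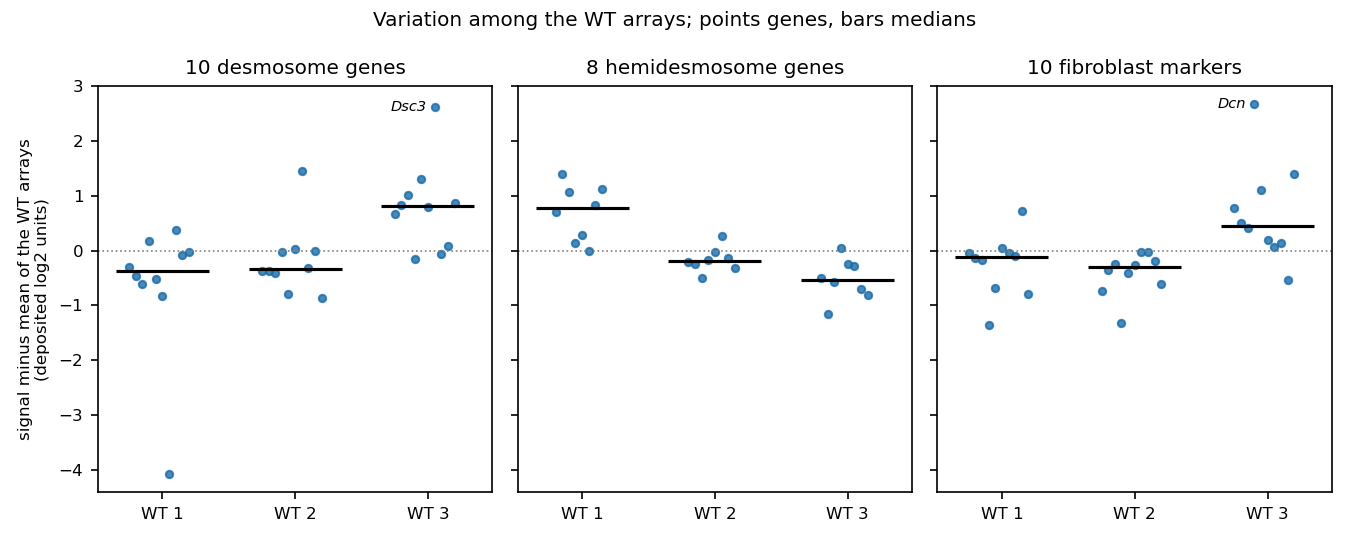
Signal minus the gene's mean over the WT arrays, in deposited log2 units, on WT arrays 1 to 3 for 10 desmosome genes, 8 hemidesmosome genes and 10 fibroblast markers, with genes as points and medians as bars. Medians are highest in WT 3 for the desmosome genes (0.82) and the fibroblast markers, and in WT 1 for the hemidesmosome genes (0.78), and the lowest point is Dsc3 in WT 1 at -4.08.

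Of 9 measured genes of the keratins that desmoplakin holds, 4 fell and none rose, with a median difference of -2.12. The basal keratin genes Krt5 and Krt14 fell (differences -10.74, SE 0.27, and -7.45, SE 0.48), and the wound keratin genes Krt16 and Krt17 were lower by at least 7.96 and at least 4.97 (limma adjusted p from 0.000127 to 0.0158). The 95% intervals of the measured Krt16 and Krt17 differences, -10.87 to -5.61 and -6.87 to -4.49, reached smaller falls than their bounds. Krt16 lost its call when any Sfrp1_KO array was left out (highest adjusted p 0.0816). Krt8, a keratin of simple epithelia, was at 6.74 to 8.98 in WT and at 10.05 to 11.75 in Sfrp1_KO and did not pass (difference 2.86, adjusted p = 0.101), but was called higher with the replicate block (0.0177) and with array weights.

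Of 23 measured genes that act on desmosome genes or proteins 3 were called lower, 3 higher and 17 not (median -0.26). The count called higher was 1 without WT replicate 1 or 2 or Sfrp1_KO replicate 1 or 2, with dim genes left out, with the replicate block and without moderation, and 0 with a minimum difference of 1. The count called lower was 1 without Sfrp1_KO replicate 1 and 5 without WT replicate 1. Of the 3 called higher Snai1 was under background on all 6 arrays and was not called without any 1 of them, so its reading gives no direction. Snai2 read lower, at 9.93, 7.98 and 7.68 in WT and at 6.14, 6.57 and 6.63 in Sfrp1_KO. It did not pass (difference -2.08, limma adjusted p = 0.140) but did without WT replicate 1 (0.0300, against up to 0.355 without another array). Trp63, encoding the p63 factor that Perp depends on, stood at 7.29, 7.22 and 7.17 in WT and under background at 4.91, 4.78 and 4.77 in Sfrp1_KO, lower by at least 2.16 (limma adjusted p = 0.000196). Zeb1, a repressor of epithelial junction genes, was under background in WT (4.71 to 4.78) and at 5.72 to 5.87 in Sfrp1_KO, higher by at least 0.84 (adjusted p = 0.00275). Klf5 was lower by at least 1.43 (adjusted p = 0.0197) and Twist1 higher by at least 0.22 (adjusted p = 0.0215). The 95% interval of the measured Klf5 difference, -2.18 to -1.07, reached a smaller fall than its bound. Twist1 was above background on 2 of 3 Sfrp1_KO arrays, and Sfrp1_KO replicate 3 read 4.86, under its background level. Trp63 and Zeb1 were called without any 1 array. Klf5 lost its call when WT replicate 3 or any Sfrp1_KO array was left out (highest adjusted p 0.0904), and Twist1 when WT replicate 1 or 2 or Sfrp1_KO replicate 1 or 2 was (0.0907). Of 9 genes of desmosome proteolysis in the outer skin 2 fell, St14 (difference -1.98, SE 0.13, adjusted p = 0.00201) and Klk8 (-2.39, SE 0.29, adjusted p = 0.0114), and Ctsl, a lysosomal protease gene, rose by 3.18 (SE 0.54, adjusted p = 0.0342). Klk8 was not called without Sfrp1_KO replicate 1 or 2 (up to 0.0667), nor Ctsl without WT replicate 2 or Sfrp1_KO replicate 1, 2 or 3 (up to 0.148).

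Genes of other junctions were read on the same arrays. Of 10 adherens junction genes 3 fell, Nectin1 (difference -4.69, SE 0.33), the E-cadherin gene Cdh1 (-4.38, SE 0.13) and Cdh3, which encodes P-cadherin (-3.34, SE 0.23), each called without any 1 array (limma adjusted p from 0.000167 to 0.00232). Of 8 hemidesmosome genes 3 fell, Col17a1, Lama3 and Itga6 (differences -2.27, -1.91 and -1.89, adjusted p = 0.0457, 0.0480 and 0.0292). None of these 3 was called without Sfrp1_KO replicate 1, 2 or 3 or without WT replicate 2, nor Col17a1 without WT replicate 3 (adjusted p up to 0.188), whereas 5 genes of the list were called without WT replicate 1. Of 10 tight junction genes F11r fell by 3.92 (adjusted p = 0.0316) and Cldn1 was lower by at least 0.29 (0.0240), and neither was called without Sfrp1_KO replicate 1, 2 or 3 or WT replicate 2, nor Cldn1 without WT replicate 3 (up to 0.139). None of 4 gap junction genes was called by limma, and Gjb2 came nearest (-2.05, adjusted p = 0.0605) and passed without WT replicate 1 (0.0212, against up to 0.199 without another array). Gjb2 was also called lower with the replicate block (0.0485), with array weights and with trend and robust moderation. Median differences were -0.20 for adherens, -1.89 for hemidesmosome, -0.24 for tight and -0.19 for gap junctions. Whether the lists differ from the desmosome set was not tested.

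The genes outside the lists whose mean-centred profile over the 6 arrays lay nearest to that of Dsp, by root mean square distance, were Serpinb5 (0.52), Ly6d (0.65), Slc7a8 (0.96), Lypd3 (0.99) and Tns4 (1.00). Within the set Dsg3 (0.37), Perp (0.69) and Pkp1 (0.91) lay in the same range and Dsg2 (2.84) was farthest. Their choice by profile fixed that these 5 genes read lower in Sfrp1_KO, where Ly6d and Slc7a8 were under background on all 3 arrays.

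Markers of other cell types were low or divided in the same arrays. Of 10 fibroblast markers 2 rose, Pdgfrb by 3.72 (SE 0.38) and Thy1 by 0.89 (SE 0.14), and Fbln1 was lower by at least 0.78 (limma adjusted p = 0.00696, 0.0237 and 0.00394). Thy1 was called without Sfrp1_KO replicate 3 but not without any other array (adjusted p up to 0.1004). The mean level of the fibroblast list was 5.56 to 6.65 in WT and 6.25 to 6.88 in Sfrp1_KO. Of 10 leukocyte markers none was called by limma (adjusted p 0.0941 or higher), and the mean level was 4.47 to 4.56 in WT and 4.72 to 5.26 in Sfrp1_KO. For 5 of them every Sfrp1_KO array lay above every WT array, which held for 2743 of all 30142 genes. Lyz2, the lysozyme gene of macrophages and neutrophils, came nearest, at 5.11, 4.69 and 5.02 in WT and at 7.94, 6.84 and 5.96 in Sfrp1_KO (difference 1.98). The complement genes C1qa and C1qb and Laptm5 had differences of 0.85, 1.30 and 0.75. These 4 were called higher without Sfrp1_KO replicate 3. The pan-leukocyte marker Ptprc was under background on all 6 arrays. None of 7 endothelial, 6 melanocyte, 6 pericyte and smooth muscle and 3 Schwann cell markers was called in either direction, and 1 endothelial gene was called higher without Sfrp1_KO replicate 3. The part of these cells in the desmosome values was not tested.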

How the data were processed

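RMA in Affymetrix Expression Console made the authors' deposited log2 signals for 72688 features on 6 arrays, per the submitters' processing notes. The sources used here give neither versions nor the annotation build. Of 65956 transcript clusters 30604 carried 1 gene symbol, updated by gene identifier through a RefSeq table (GRCm38.p6; 22818 matched, 827 changed). Keeping the brightest feature per gene gave 30142 genes, dim ones included, and near-identical genes can share probe signal. The genotypes entered 1 limma fit (version 3.58.1, R 4.3.3; lmFit, eBayes, two-sided). A gene was called where its Benjamini-Hochberg p over all genes was under 0.05. The script was tested on simulated data. SD is over 3 arrays, SE is moderated, and precision is limited by how few arrays there are.

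The gene lists held 165 entries in 17 lists, and some entries were not analysed here. Named were all 10 genes, Sfrp1, the other desmosome genes, the cadherin cluster with 5 genes on each side, up to 4 per list (called ones by size, otherwise smallest p) and the 5 nearest profiles to Dsp. Profiles near Dsg2, which was under background, were not used. Genes outside this rule (Snord70, Xist, Itgb4, Dcn, Krt8, Snai1, Snai2, Ptprc) were named after their values were seen. Of 6 gene pairs only Dsp against Jup is given, because in the others a gene was under background on all arrays of a genotype. Members and lists were chosen with earlier results of these data known. Alternatives were a replicate block, dim genes left out, the mean of features, quantile normalization, array weights, trend and robust moderation, no moderation, a minimum difference of 1, all features, and each array left out.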

Additional observations from a re-analysis of the deposited data

How the results depend on the processing

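With 3 arrays a genotype, counts of calls moved with the settings while directions held under the 15 alternatives for the desmosome genes other than Dsg2, which was under background. Of the 8 called lower, 4 were called with a minimum difference of 1, 1 (Pkp1) without variance moderation, 6 with all features tested, after quantile normalization and with the replicate block (Dsg1b and Dsc2 lost), and 5 to 9 with 1 array left out. Of the other desmosome genes, 3 called lower became 1 with all features tested, with a minimum difference, without moderation and with the replicate block, and 1 to 2 with 1 array left out. Of 9 cadherins in the cluster, 6 called lower became 2 with all features, 1 with a minimum difference, 0 without moderation (limma), 3 after quantile normalization, 2 with the replicate block, and 1 to 6 with 1 array left out. Of the flanking genes 1 was called lower with array weights, and 0 to 1 with 1 array left out. Differences of Dsg4 turned to -0.034 with array weights and ran from -0.023 to 0.13 with 1 array left out, and those of Pnn from -0.027 to 0.12. Over all genes, 437 lower and 552 higher calls became 238 and 297 with the block, 37 and 47 with a minimum difference, 21 and 14 without moderation, 294 and 369 with all features, and 100 to 407 and 191 to 487 with 1 array left out. Same-numbered arrays of the genotypes deviated with correlations of 0.18, -0.12 and 0.17. Differently numbered arrays ran from -0.33 to 0.25, so these values cannot tell whether same-numbered samples share a batch. Signals near background limit how large a fall can be measured.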
